A study of Mus musculus with 91 samples.

Results

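The *Bcl2* family decides at the mitochondrion whether a cell lives or dies by apoptosis, and 10 of its mouse genes were followed here in sorted cells of the fetal gonad. They are the survival genes *Bcl2*, *Bcl2l1* and *Mcl1*, the effector genes *Bax* and *Bak1*, and the BH3-only death genes *Bcl2l11* (Bim), *Bbc3* (Puma), *Pmaip1* (Noxa), *Bmf* and *Bid*. Members were chosen by symbol, not by their values, and a gene was taken where a transcript cluster of the array named it alone. 9 of the 10 genes had such a cluster, 1 each, out of 19938 genes in the whole table, and *Bax* was not analysed here. In some group, all 9 had at least 2 arrays of 3 above a log2 value of 6, the limit for a test, and so were among the 15324 genes tested. 8 of them reached it in all 24 groups, and *Bid* in 15.

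Survival proteins of the family hold the effectors in check. BH3-only proteins relieve that hold or activate the effectors directly, after which the effectors open the outer mitochondrial membrane, cytochrome c leaves and caspases are activated. In the fetal gonad the family is known best for germ cells, whose numbers depend on the balance of these proteins and whose ovarian and testicular paths part when XX germ cells enter meiosis and XY germ cells stop dividing.

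RNA was measured on 1-colour Affymetrix arrays, as log2 intensities, in cells sorted by a fluorescent reporter from the gonads of XX and XY embryos on 3 days of gestation (E11.5, E12.5, E13.5), with 3 arrays in each group. Supporting cells, the precursors of Sertoli and granulosa cells, carried *Sry-EGFP*, in which the *Sry* promoter drives the marker, except that XY cells of E12.5 and E13.5 carried *Sox9-ECFP*. In the later comparisons of XX with XY supporting cells the reporter and the sex therefore cannot be told apart. Germ cells carried *Oct4-EGFP* and endothelial cells *Flk1-mCherry*, and interstitial and stromal cells were sorted by a reporter of their own. *Sry-EGFP*, *Sox9-ECFP* and *Oct4-EGFP* embryos were progeny of CD-1 and C57BL/6J mice, the embryos of the interstitial and stromal sort of CD-1 and a mixed background, and *Flk1-mCherry* embryos were CD-1. A further 18 arrays hold *αSma-EYFP* cells, whose strain is labelled FVB, from the same sexes and stages, and 1 array of a whole newborn mouse was not used in any comparison. No group was treated, each array holds gonads pooled from 1 or more litters, and lineage, reporter and strain cannot be told apart. *Oct4-EGFP* gonads were sorted with the mesonephros, the neighbouring embryonic kidney, still attached, as were *Flk1-mCherry* gonads of E11.5 with a part of it.

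The sorts carried the markers of their lineages. All 7 germ cell markers were higher in germ cells than in the other lineages, as were 6 of 6 endothelial markers in endothelial cells, 7 of 7 interstitial markers in interstitial and stromal cells, and 7 of 7 XY and 6 of 6 XX supporting markers in supporting cells. Other cells were visible as well. All 10 macrophage and all 5 red blood cell genes tested were higher in endothelial cells than elsewhere. All 4 fetal Leydig genes tested were higher in XY than in XX endothelial cells at E12.5 and E13.5, with a mean level of 10.46 to 10.91 in the 3 XY arrays of E13.5 against 5.49 to 5.66 in the XX arrays. The 6 XX supporting markers had mean levels of 8.59 and 8.84 in XX interstitial and stromal cells of E12.5 and E13.5. These levels were 9.38 and 9.42 in XX and 7.24 and 7.13 in XY supporting cells of the same stages. All 7 XY supporting markers were higher in XY than in XX interstitial cells at E12.5. In germ cells of E13.5 their mean level was 6.98 to 7.28 in XY and 6.47 to 6.59 in XX arrays. The 7 germ cell markers had a mean level of 5.66 to 5.86 in XX and 5.81 to 6.03 in XY endothelial arrays of E11.5. At E13.5 it was 6.565 to 6.90 in XX and 6.82 to 7.07 in XY endothelial arrays. Their part in the results below was not tested, and in bulk samples fewer cells of a type and less RNA per cell cannot be told apart. The arrays had medians between 6.555 and 6.811 and no pair was identical.

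*Bcl2* and *Bak1* were the members that lay furthest below the somatic lineages in germ cells and *Bid* the one that lay furthest above them, and their promoters are shown for that reason. Each is 300 bases, from 250 before to 50 after the start of transcription in RefSeq on GRCm38.p6, all on the minus strand and written 5′ to 3′. Capitals mark GC boxes, the sequence GGGCGG on either strand. *Bcl2* lies at chr1:106714241-106714540, *Bak1* at chr17:27028578-27028877 and *Bid* at chr6:120916775-120917074.
Bcl2: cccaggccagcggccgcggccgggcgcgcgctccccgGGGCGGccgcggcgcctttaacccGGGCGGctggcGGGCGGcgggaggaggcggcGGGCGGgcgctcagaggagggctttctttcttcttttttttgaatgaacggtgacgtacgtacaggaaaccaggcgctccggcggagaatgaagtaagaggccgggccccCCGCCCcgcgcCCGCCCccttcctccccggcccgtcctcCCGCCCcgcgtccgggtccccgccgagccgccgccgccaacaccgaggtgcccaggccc
Bak1: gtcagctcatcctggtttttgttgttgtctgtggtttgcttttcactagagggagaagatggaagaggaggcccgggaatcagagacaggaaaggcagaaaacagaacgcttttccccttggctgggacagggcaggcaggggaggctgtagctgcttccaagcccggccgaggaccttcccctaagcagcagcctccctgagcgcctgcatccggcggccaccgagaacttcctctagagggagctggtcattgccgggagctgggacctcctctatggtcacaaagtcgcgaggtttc
Bid: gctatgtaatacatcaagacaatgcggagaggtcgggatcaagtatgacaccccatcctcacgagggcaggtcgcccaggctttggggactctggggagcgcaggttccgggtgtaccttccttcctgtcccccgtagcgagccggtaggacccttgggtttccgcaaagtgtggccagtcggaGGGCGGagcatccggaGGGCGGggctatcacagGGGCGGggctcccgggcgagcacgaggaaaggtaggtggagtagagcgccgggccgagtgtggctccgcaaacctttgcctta
The *Bcl2* window was 76% G and C with 44 CpG dinucleotides and held 7 GC boxes, 4 forward and 3 on the other strand. The *Bid* window was 63.3% G and C with 22 CpG and 3 GC boxes, all forward, and the *Bak1* window 58.3% with 11 CpG and no GC box. Over 32851 promoters of the same length the median was 52.7% G and C with 7 CpG, 35.7% held at least 1 GC box, 10.7% at least 3 and 0.627% at least 7. Searched on both strands, an E-box (CACGTG, in 7.15% of promoters), an E2F motif (GGCGGGAA, 2.19%), a CRE (TGACGTCA, 1.79%), a SOX motif (AACAAT, 10.7%), a FoxO motif (TGTTTAC, 3.65%) and a GATA motif (AGATAA, 11.2%) were in none of the 3 windows. A match or its absence in these letters is a description of the window, and 9 of the 10 members had a promoter entry.

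Germ cells stood apart from the somatic lineages in the genes of both sides of the family. *Bcl2*, a survival gene whose protein acts at the outer mitochondrial membrane, had 18 germ cell values from 6.62 to 7.55 with a median of 7.03. The lowest somatic value was 8.44, in a supporting sample, and the medians were 9.25 in supporting, 9.36 in interstitial and stromal and 9.24 in endothelial cells. No germ cell array overlapped any somatic array, and the difference was -2.21 ± 0.04 (log2, SE), 4.64-fold lower in germ cells (adjusted p = 8e-44). *Bak1*, the effector that stands ready in the mitochondrial membrane, ran from 6.26 to 7.12 in germ cells with a median of 6.64. Somatic values began at 7.43, with medians of 8.09 in supporting, 7.96 in interstitial and stromal and 8.73 in endothelial cells. Again no array overlapped, with a difference of -1.56 ± 0.06 (2.95-fold lower, adjusted p = 5.35e-29). The survival gene and the effector were thus both at their lowest in the same lineage.

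The other members differed less between germ and somatic cells. *Mcl1*, a survival gene whose protein is short-lived, ran from 9.23 to 10.20 in germ cells and was 0.54 ± 0.04 log2 lower on average than in the rest (adjusted p = 3.43e-19). *Bid*, which links death receptors to mitochondria once caspase 8 has cut its protein, went the other way. Its 18 germ cell values were 6.23 to 6.89 with a median of 6.51, against medians of 6.07 in supporting, 5.86 in interstitial and stromal and 6.06 in endothelial cells. The germ cell range overlapped those of supporting and endothelial cells, and the difference was 0.53 ± 0.04 (1.45-fold higher in germ cells, adjusted p = 1.52e-18). *Bid* lay close to the limit of 6 throughout, so a small difference there is measured on a dim cluster. *Pmaip1* was 0.30 ± 0.04 higher in germ cells on average (adjusted p = 2.1e-09), but its germ cell values ran from 6.39 to 8.77 and the average hides the sexes and stages described below. *Bcl2l1*, *Bcl2l11* and *Bbc3* were lower by 0.19, 0.18 and 0.11 log2 (adjusted p = 0.000242, 0.00871 and 0.0011), and *Bmf* was not called. 8 of 9 members were called in germ cells, in a comparison that called 76.8% of all clusters. All 9 handling stress genes, which respond to dissociation, were also lower in germ cells, with a median of -1.44, and their part in these differences was not tested.

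**Figure D1:**
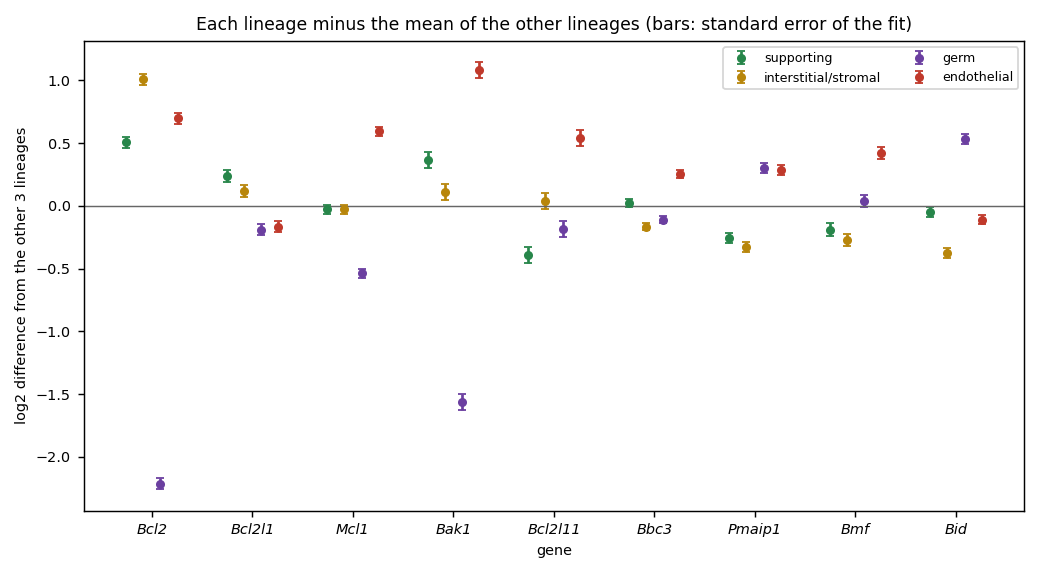
Difference in log2 intensity between each lineage and the mean of the other 3 lineages for the 9 measured members, with bars for the standard error of the limma fit over 72 arrays. *Bcl2* and *Bak1* lie at -2.21 and -1.56 in germ cells, and *Bak1* is highest in endothelial cells at 1.08.

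In the somatic lineages the order of the members differed. Interstitial and stromal cells had the highest *Bcl2*, by 1.01 ± 0.04 log2 over the mean of the other lineages (adjusted p = 5.55e-27), with *Bid*, *Pmaip1*, *Bmf* and *Bbc3* lower by 0.37, 0.33, 0.27 and 0.17. Endothelial cells had 7 members higher and 2 lower. *Bak1* was higher there by 1.08 ± 0.06, *Bcl2* by 0.70 ± 0.04, *Mcl1* by 0.59 ± 0.04, *Bcl2l11*, a BH3-only gene known for its role in blood cells, by 0.54 ± 0.06, *Bmf* by 0.42 ± 0.05, *Pmaip1* by 0.29 ± 0.04 and *Bbc3*, a p53 target, by 0.25 ± 0.03 (adjusted p at most 8.01e-09). The macrophage and red blood cell genes named above moved with these members in endothelial cells, by medians of 1.16 and 1.53. Supporting cells had higher *Bcl2* (0.51), *Bak1* (0.37) and *Bcl2l1* (0.24) and lower *Bcl2l11* (-0.39), *Pmaip1* (-0.26) and *Bmf* (-0.19). Calls numbered 6 in supporting cells, 6 in interstitial and stromal cells and 9 in endothelial cells, where 65.4%, 69.6% and 72.2% of all clusters were called. The 4 comparisons share all their arrays, so a gene far down in germ cells is raised in each of the other 3.

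Some lineage calls were small. At a fold over 1.5 as well as an unadjusted p under 0.05, the limits of the study's methods, 6 of the 29 lineage calls remained. They are *Bcl2* in interstitial, germ and endothelial cells, *Bak1* in germ and endothelial cells and *Mcl1* in endothelial cells. Of 16820 clusters, 2279 met these limits in supporting, 1548 in interstitial and stromal, 4678 in germ and 2669 in endothelial cells. The count of 6 is therefore not read as a result about the members. *Bcl2l1*, whose long protein form protects cells, was called in all 4 lineage comparisons, but each difference was small. Its medians were 8.44 in supporting, 8.26 in interstitial and stromal, 8.01 in germ and 7.99 in endothelial cells, and all 4 ranges overlapped. Without the XY endothelial groups of E12.5 and E13.5, which hold fetal Leydig genes, its endothelial difference went from -0.17 to -0.08 (adjusted p = 0.169), and its interstitial difference of 0.12 lost its call both there (adjusted p = 0.0992) and without XY interstitial/stromal E13.5 replicate 2 (0.09, adjusted p = 0.0681).

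**Figure D2:**
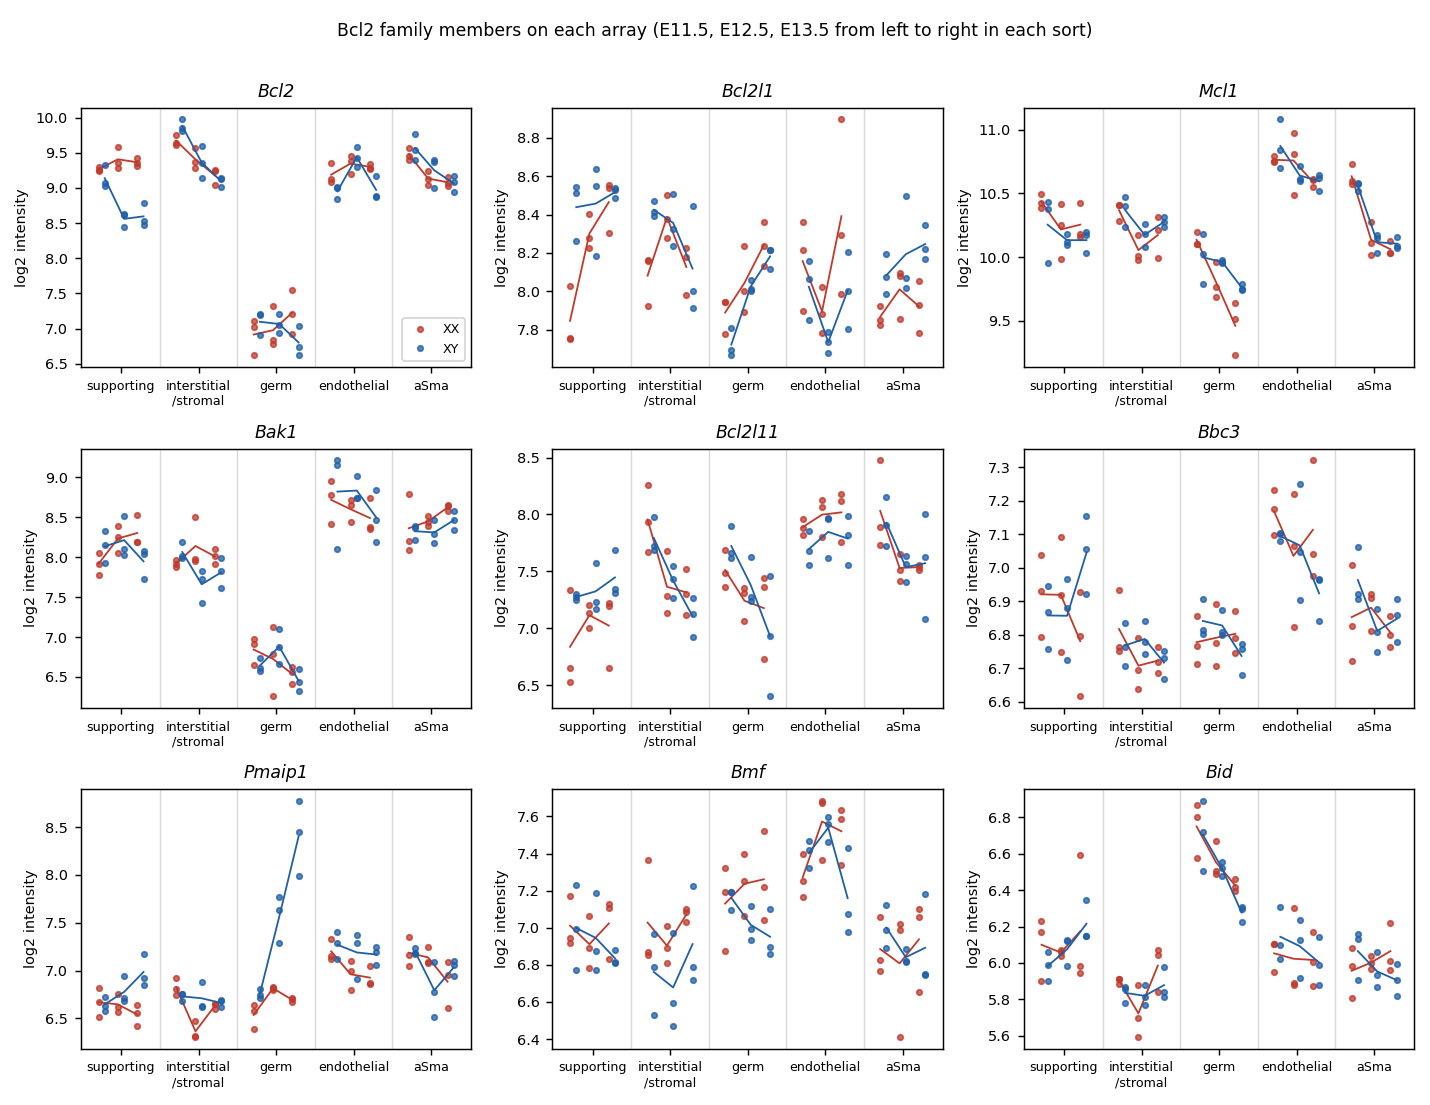
Log2 intensity of each array for the 9 members, 1 panel each, by sort with E11.5, E12.5 and E13.5 from left to right, XX in red and XY in blue, and lines joining the group means. *Bcl2* and *Bak1* sit lowest in germ cells, and *Pmaip1* climbs to 7.99 to 8.77 in XY germ cells of E13.5.

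*Pmaip1*, the BH3-only gene whose protein binds *Mcl1* protein, parted between the sexes in germ cells. The 3 XY germ cell arrays read 6.75, 6.71 and 6.81 at E11.5, 7.77, 7.63 and 7.29 at E12.5 and 8.45, 8.77 and 7.99 at E13.5. The XX germ cell arrays read 6.64, 6.39 and 6.58 at E11.5, 6.83, 6.80 and 6.82 at E12.5 and 6.70, 6.71 and 6.67 at E13.5. XY values lay above all XX values at every stage, with a gap that widened, and XY germ cells of E13.5 lay above every other group of the series without overlap. The XY minus XX difference was 0.22 at E11.5 and not called, 0.75 ± 0.12 at E12.5 (1.68-fold, adjusted p = 1.36e-05) and 1.71 ± 0.12 at E13.5 (3.27-fold, adjusted p = 5.14e-17). The change of this difference from E11.5 to E13.5 was 1.49 ± 0.17 (adjusted p = 2.81e-09). Within XY germ cells *Pmaip1* rose by 1.65 ± 0.12 from E11.5 to E13.5 (3.13-fold, adjusted p = 3.2e-16), and no array overlapped. In XX germ cells the stage difference was not called. None of these 4 calls was lost on leaving out any 1 of the 72 arrays.

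Meiosis genes moved with the sex in the same cells. All 7 (*Stra8*, *Rec8*, *Sycp1*, *Sycp3*, *Dmc1*, *Meioc* and *Meiob*) were lower in XY than in XX germ cells at E13.5, with a median of -2.34, and their mean level was 9.74 to 10.18 in the XX arrays and 7.09 to 7.17 in the XY arrays. At E12.5 4 of 7 were lower in XY, with a median of -1.07 over the list. Their relation to the members was not tested.

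**Figure D3:**
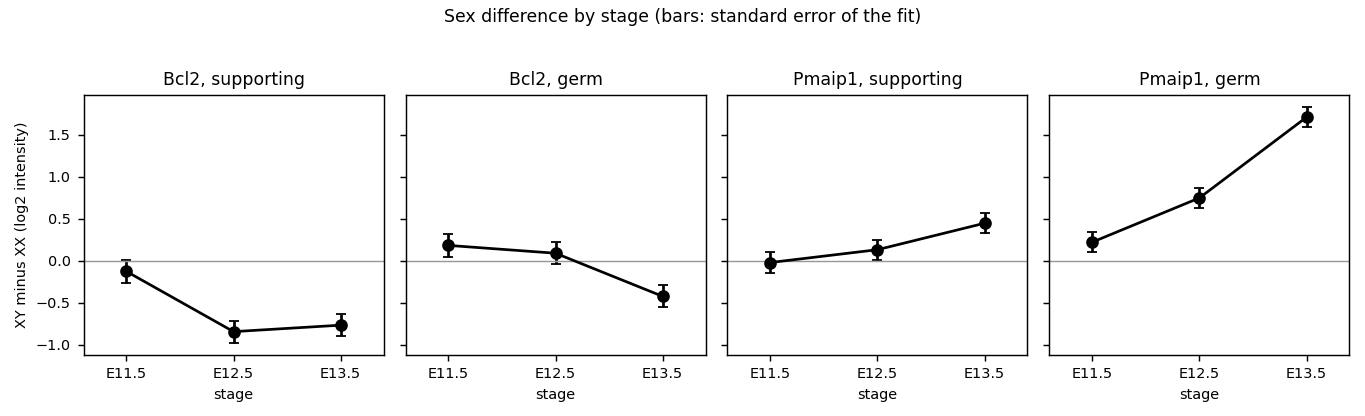
XY minus XX difference in log2 intensity by stage (E11.5, E12.5, E13.5) for *Bcl2* and *Pmaip1* in supporting and germ cells, with bars for the standard error of the limma fit. *Pmaip1* in germ cells reaches 1.71 at E13.5, and *Bcl2* in supporting cells lies at -0.85 and -0.77 at the later stages.

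*Mcl1* and *Bcl2* also shifted in germ cells. *Mcl1* read 10.11, 10.20 and 10.10 in XX germ cells at E11.5, 9.69, 9.96 and 9.77 at E12.5 and 9.51, 9.64 and 9.23 at E13.5. In XY germ cells it read 9.79, 10.18 and 10.02 at E11.5, 9.95, 9.98 and 9.96 at E12.5 and 9.75, 9.74 and 9.79 at E13.5. The XX values of E13.5 lay below all XX values of the earlier stages, and *Mcl1* fell by 0.67 ± 0.11 in XX germ cells from E11.5 to E13.5 (1.60-fold, adjusted p = 3.14e-06). The corresponding difference in XY germ cells was -0.24 ± 0.11 (adjusted p = 0.16), and it was called with array weights (-0.25, adjusted p = 0.0285). At E13.5 *Mcl1* was higher in XY germ cells by 0.30 ± 0.11 (adjusted p = 0.0463), without overlap. That call lies at its limit. It was lost on leaving out any of the 6 arrays of these groups other than XX germ E13.5 replicate 2. Without XX germ E13.5 replicate 3 the difference was 0.18 (adjusted p = 0.375). The change of the sex difference over time was not called (0.44, adjusted p = 0.073), though it was without XY germ E11.5 replicate 2 or XX germ E13.5 replicate 2 (0.53 in both, adjusted p = 0.0339 and 0.0346). It was also called with quantile normalization (0.43, adjusted p = 0.043), array weights (0.35, adjusted p = 0.0476) and without XY supporting E11.5 replicate 1 (0.44, adjusted p = 0.048).

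*Bcl2* in XX germ cells read 6.62, 7.10 and 7.02 at E11.5 and 7.55, 7.21 and 6.92 at E13.5. In XY germ cells it read 7.19, 7.20 and 6.90 at E11.5 and 7.04, 6.74 and 6.63 at E13.5. The sexes overlapped at both stages. At E13.5 it was lower in XY germ cells by a difference of -0.43 ± 0.13 (adjusted p = 0.0145), and the change of the sex difference was -0.61 ± 0.19 (adjusted p = 0.0283). Without XX germ E13.5 replicate 1 these became -0.26 (adjusted p = 0.213) and -0.45 (adjusted p = 0.154). The first was also lost without XY germ E13.5 replicate 2 or 3 (adjusted p = 0.0598 and 0.114), and the second without these arrays, XX germ E11.5 replicate 1 or XY germ E11.5 replicate 1 or 2, 6 omissions in all with an adjusted p of up to 0.155. By stage *Bcl2* differed by 0.31 in XX germ cells (adjusted p = 0.0789), or 0.47 without XX germ E13.5 replicate 3 (adjusted p = 0.0128) and 0.41 without XX germ E11.5 replicate 2 (adjusted p = 0.0387). In XY germ cells it differed by -0.29 (adjusted p = 0.134), or -0.41 without XY germ E13.5 replicate 1 (adjusted p = 0.0423).

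Other members changed with stage in germ cells. *Bid* read 6.80, 6.87 and 6.58 in XX germ cells at E11.5 and 6.46, 6.42 and 6.40 at E13.5, and in XY germ cells 6.72, 6.51 and 6.89 and then 6.30, 6.31 and 6.23. Values of E13.5 lay below those of E11.5 in both sexes, and *Bid* fell by 0.33 ± 0.12 in XX (adjusted p = 0.0295) and by 0.43 ± 0.12 in XY germ cells (adjusted p = 0.00496). The XX call was lost without XX germ E11.5 replicate 1 or 2 or XX germ E13.5 replicate 2 or 3, with an adjusted p of up to 0.147, and the XY call without XY germ E11.5 replicate 3 (-0.34, adjusted p = 0.0684). *Bcl2l11*, whose protein binds all the survival members, read 7.61, 7.90 and 7.66 at E11.5 in XY germ cells and 7.45, 6.93 and 6.40 at E13.5. It fell by 0.79 ± 0.19 (1.73-fold, adjusted p = 0.00186), although the 3 later arrays were spread over more than the fall itself. Without XY germ E13.5 replicate 3 the difference was -0.53 (adjusted p = 0.0817). In XX germ cells *Bcl2l11* differed by -0.33 (adjusted p = 0.238), and with array weights it was called there (-0.56, adjusted p = 0.0111). *Bcl2l1* read 7.81, 7.69 and 7.67 at E11.5 in XY germ cells and 8.12, 8.22 and 8.21 at E13.5, all later values above the earlier ones, and rose by 0.46 ± 0.14 (adjusted p = 0.0137). That call was lost without XY germ E11.5 replicate 3 (adjusted p = 0.0548) or XY germ E13.5 replicate 3 (adjusted p = 0.0531). In XX germ cells *Bcl2l1* differed by 0.35 (adjusted p = 0.0539), with arrays at 7.78 to 7.95 and then 8.13 to 8.36, without overlap. It was called there with array weights (0.34, adjusted p = 0.0243) and when the fit held only germ cell arrays (adjusted p = 0.00644).

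Between the sexes 0 of 9 members were called in germ cells at E11.5, 1 at E12.5 and 3 at E13.5, where 0.202%, 4.48% and 21.1% of all clusters were called. At E11.5 no member had an unadjusted p under 0.05 either. From E11.5 to E13.5 2 members were called in XX and 4 in XY germ cells, against 25.4% and 16.6% of all clusters. A change of the sex difference was called for 2 members, against 9.11%.

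In supporting cells *Bcl2* came to differ between the sexes. XX arrays read 9.23, 9.30 and 9.26 at E11.5, 9.28, 9.59 and 9.36 at E12.5 and 9.42, 9.36 and 9.32 at E13.5. XY arrays read 9.06, 9.03 and 9.32 at E11.5, 8.44, 8.62 and 8.62 at E12.5 and 8.53, 8.79 and 8.47 at E13.5. The sexes overlapped at E11.5 and were apart at both later stages, because the XY values were lower and the XX values stayed within 9.23 to 9.59. The XY minus XX difference was -0.13 ± 0.13 at E11.5 (adjusted p = 0.705), -0.85 ± 0.13 at E12.5 (1.80-fold lower in XY, adjusted p = 6.92e-07) and -0.77 ± 0.13 at E13.5 (1.70-fold, adjusted p = 4.89e-06). In XY supporting cells *Bcl2* fell by 0.54 ± 0.13 from E11.5 to E13.5 (adjusted p = 0.00153), a span in which the reporter also changed. The change of the sex difference was -0.64 ± 0.19 (adjusted p = 0.0141), and without XY supporting E11.5 replicate 3 it was -0.55 (adjusted p = 0.0569). The sex calls held in all 72 omissions.

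*Bcl2l1* showed its sex difference in supporting cells at the start. XX arrays read 7.75, 7.76 and 8.03 at E11.5, 8.22, 8.40 and 8.28 at E12.5 and 8.55, 8.30 and 8.54 at E13.5. XY arrays read 8.51, 8.26 and 8.54 at E11.5, 8.55, 8.64 and 8.18 at E12.5 and 8.54, 8.53 and 8.48 at E13.5. At E11.5, when both sexes were sorted by *Sry-EGFP*, the XX values lay below all XY values, and later they overlapped them. The difference at E11.5 was 0.59 ± 0.14 (1.51-fold higher in XY, adjusted p = 0.00186). *Bcl2l1* rose by 0.62 ± 0.14 in XX supporting cells from E11.5 to E13.5 (1.53-fold, adjusted p = 0.000928), and both calls held in all 72 omissions. The change of the sex difference was -0.54 (adjusted p = 0.0575), on the edge of a call. It was called with quantile normalization (-0.59, adjusted p = 0.0417), with array weights (-0.54, adjusted p = 0.0285) and in several omissions of 1 array, such as XX supporting E11.5 replicate 3 (-0.63, adjusted p = 0.0345), XY supporting E11.5 replicate 2 (-0.63, adjusted p = 0.0316) or XX supporting E13.5 replicate 2 (-0.62, adjusted p = 0.0401).

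BH3-only genes differed in supporting cells at E13.5. *Pmaip1* read 6.64, 6.42 and 6.56 in XX and 6.92, 7.18 and 6.85 in XY arrays, without overlap, and was higher in XY by 0.45 ± 0.12 (1.36-fold, adjusted p = 0.00296). It rose by 0.34 ± 0.12 in XY supporting cells from E11.5 (adjusted p = 0.0328), a call lost without XY supporting E11.5 replicate 2 or 3 or XY supporting E13.5 replicate 2 (adjusted p up to 0.207). *Bbc3* read 6.93, 6.62 and 6.80 in XX and 7.06, 7.16 and 6.92 in XY arrays. These overlapped, with a difference of 0.26 ± 0.09 (adjusted p = 0.0227), which was 0.18 without XX supporting E13.5 replicate 2 (adjusted p = 0.196) and also lost its call without XY supporting E13.5 replicate 1 or 2. *Bcl2l11* differed by 0.42 at E13.5 (adjusted p = 0.0953), and by 0.44 at E11.5 (adjusted p = 0.172), where it was 0.69 without XX supporting E11.5 replicate 1 (adjusted p = 0.0237). At E13.5 it was called with median centring (0.50, adjusted p = 0.0492). *Bid* differed by 0.23 from E11.5 to E13.5 in XY supporting cells (adjusted p = 0.138). That difference was called with quantile normalization (0.30, adjusted p = 0.0353) and with array weights (0.28, adjusted p = 0.0343). For *Pmaip1* and *Bbc3* the change of the sex difference was not called (0.47, adjusted p = 0.0575, and 0.33, adjusted p = 0.0856). Both were called with quantile normalization (0.51, adjusted p = 0.033, and 0.38, adjusted p = 0.0475) and median centring (0.53, adjusted p = 0.0334, and 0.38, adjusted p = 0.0421), and *Bbc3* also with array weights (0.33, adjusted p = 0.0432). Fetal Leydig, cell cycle and stress genes moved beside these members. All 4 fetal Leydig genes were higher in XY supporting cells at E13.5, with a mean level of 6.92 to 7.27 in XY and 5.72 to 5.84 in XX arrays. 6 of 7 cell cycle genes were higher in XY supporting cells at E13.5, with a mean level of 9.59 to 9.69 in XY and 7.51 to 7.79 in XX arrays, and 6 of 9 handling stress genes were lower, at 8.48 to 8.56 against 9.13 to 9.62. At E12.5 6 of 7 cell cycle genes were higher and no stress gene was called. Their part in the differences of the members was not tested.

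Calls between the sexes numbered 1, 1 and 3 of 9 members in supporting cells at the 3 stages in order, where 9.59%, 30.7% and 29.4% of all clusters were called. By stage 1 member was called in XX and 2 in XY supporting cells, against 12% and 24.2% of clusters, and 1 change of the sex difference, against 13.4%. Against those shares the number of members called does not stand out, and the results are those of the single genes.

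**Figure D4:**
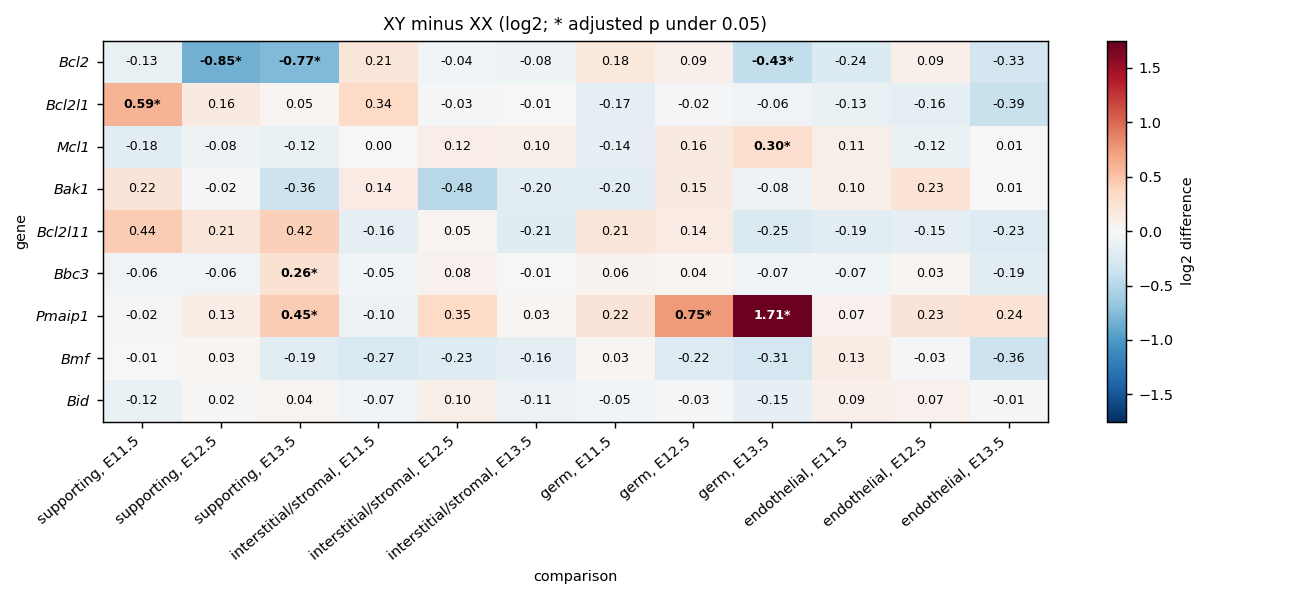
XY minus XX difference in log2 intensity for the 9 members (rows) in each lineage and stage (columns), with the value in each cell and a star where the adjusted p is under 0.05. The 9 stars lie in supporting and germ cells, 6 with XY higher and 3 with XY lower.

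Interstitial and stromal cells changed with stage and not detectably with sex. *Bcl2* read 9.61, 9.64 and 9.76 in XX cells at E11.5 and 9.04, 9.24 and 9.25 at E13.5, and in XY cells 9.80, 9.86 and 9.97 and then 9.02, 9.14 and 9.12. All later values lay below all earlier ones. *Bcl2* fell by 0.49 ± 0.13 in XX (1.41-fold, adjusted p = 0.0123) and by 0.78 ± 0.13 in XY cells (1.72-fold, adjusted p = 1.7e-05). *Bcl2l11* read 7.94, 7.67 and 8.26 in XX cells at E11.5 and 7.31, 7.12 and 7.52 at E13.5, and in XY cells 7.73, 7.97 and 7.68 and then 6.92, 7.13 and 7.27. It fell by 0.64 ± 0.19 in XX (adjusted p = 0.032) and by 0.69 ± 0.19 in XY cells (adjusted p = 0.0167), without overlap in either. A survival gene and a death gene were thus lower at E13.5 in both sexes of the lineage. The XX call of *Bcl2* was lost without replicate 3 of E11.5 or replicate 1 of E13.5 (adjusted p up to 0.0903). The XX call of *Bcl2l11* was lost without replicate 1 or 3 of E11.5 or replicate 1 or 2 of E13.5 (up to 0.263), and its XY call without replicate 2 of E11.5 or replicate 1 of E13.5 (up to 0.115). In XY cells all 4 fetal Leydig genes rose over the same span, by a median of 4.06, and in XX cells 3 of 6 XX supporting markers rose. The mean level of the 6 endothelial markers was lower at E13.5 in both sexes without overlap of arrays, at 7.15 and then 6.51 in XX cells and 7.07 and then 6.63 in XY cells, with 3 of 6 called lower in XX and 1 in XY cells. The part of these markers was not tested.

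None of 9 members was called between the sexes in interstitial and stromal cells at any stage, where 0.238%, 5.92% and 8.67% of all clusters were called at the 3 stages in order. Unadjusted p-values under 0.05 numbered 1, 2 and 0. The nearest were *Pmaip1* at E12.5 (0.35 higher in XY, adjusted p = 0.0829), *Bak1* at E12.5 (-0.48, adjusted p = 0.166) and *Bcl2l1* at E11.5 (0.34, adjusted p = 0.736). *Pmaip1* passed when the fit held only arrays of its lineage (adjusted p = 0.0179) and without XY germ E13.5 replicate 2 or 3 (adjusted p = 0.048 and 0.0388). Its XY arrays of E12.5 read 6.62 to 6.88 and its XX arrays 6.31 to 6.47, without overlap. The stage calls of 2 members in each sex stand against 6.45% of clusters in XX and 7.39% in XY cells, and no change of the sex difference was called or had an unadjusted p under 0.05, against 3.19% of clusters called.

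In endothelial cells no member was called by sex or stage with limma on the deposited values, all arrays weighted alike and without a replicate block. Unadjusted p-values under 0.05 numbered 0, 0 and 5 of 9 between the sexes at the 3 stages in order, 1 by stage in each sex, and 1 for the change of the sex difference. No share of all clusters was counted at an unadjusted p alone, here or for the other sorts, so these counts have none to be read against. At an adjusted p under 0.05 the sex comparisons called 0.981%, 3.55% and 5.31% of all clusters. The stage comparisons called 3.69% in XX and 13.3% in XY cells, and the change of the sex difference 2.6%. At E13.5 fetal Leydig genes were high in the XY sort. *Bcl2l1* differed by -0.39, with 8.89, 8.29 and 7.99 in the XX arrays (adjusted p = 0.101), *Bmf*, a BH3-only gene tied to the cytoskeleton, by -0.36 (adjusted p = 0.17) and *Bcl2* by -0.33 (adjusted p = 0.178). With array weights *Bmf* (-0.53, adjusted p = 0.00315), *Bcl2l1* (-0.39, adjusted p = 0.0343) and *Bcl2* (-0.38, adjusted p = 0.04) were called between the sexes at E13.5, and with quantile normalization *Mcl1* by stage in XY cells (-0.30, adjusted p = 0.031). With the replicate number as a block *Bcl2* was also called between the sexes at E13.5 (-0.33, adjusted p = 0.0478). *Bcl2l1* passed without XX endothelial E13.5 replicate 3 (-0.59, adjusted p = 0.00525) and *Bmf* without XY endothelial E13.5 replicate 3 (-0.49, adjusted p = 0.0483). 1 array stood apart for *Bak1*, which read 9.15, 9.21 and 8.10 in XY endothelial cells of E11.5. Without replicate 3 the stage difference of *Bak1* in XY endothelial cells went from -0.32 (adjusted p = 0.288) to -0.69 (adjusted p = 0.00868), and that of *Mcl1* from -0.28 (adjusted p = 0.0932) to -0.36 (adjusted p = 0.0398).

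**Figure D5:**
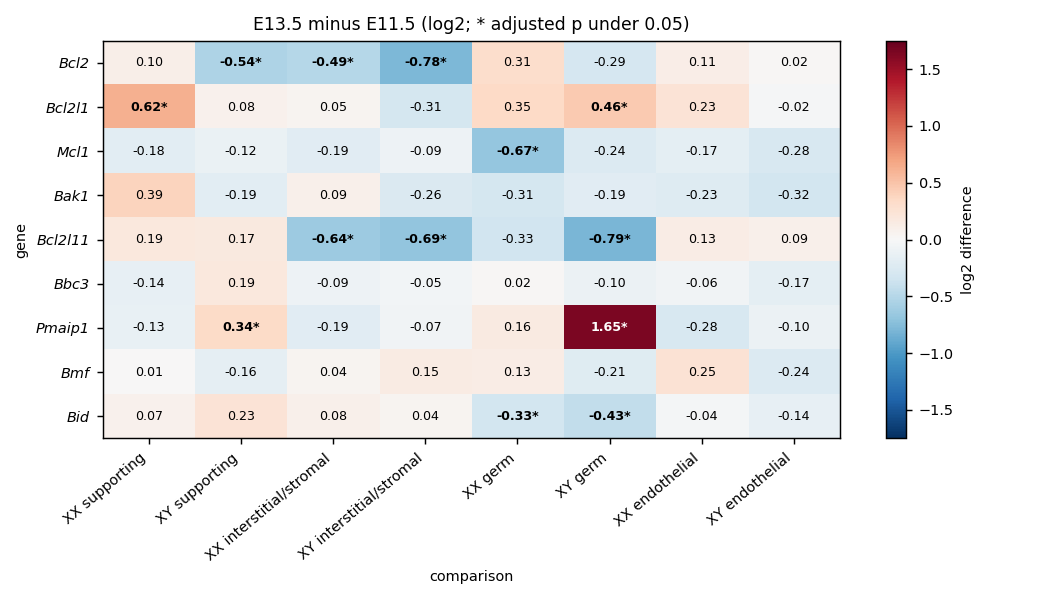
E13.5 minus E11.5 difference in log2 intensity for the 9 members (rows) in XX and XY cells of each lineage (columns), with the value in each cell and a star where the adjusted p is under 0.05. The 13 stars comprise 4 rises and 9 falls, none of them in endothelial cells, and *Pmaip1* in XY germ cells is the largest at 1.65.

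Over all 12 comparisons of the sexes, 9 of 108 member values were called, 6 with XY higher and 3 with XY lower, and 7 comparisons held none. Single sex comparisons called from 0.202% to 30.7% of all clusters. By stage 13 of 72 were called, 4 upward and 9 downward, in comparisons that each called from 3.69% to 25.4% of all clusters. The totals are counts only, and the results are those of the single genes. *Bmf* and *Bak1* were called in none of the comparisons of sex or stage over all arrays weighted alike, with an unadjusted p in limma under 0.05 in 2 of them for *Bmf* and 1 for *Bak1*, but *Bmf* passed in endothelial cells of E13.5 with array weights and both genes in single omissions of an endothelial array, as given above. At the limits of the study's methods 5 sex and 7 stage calls remained. Of 16820 clusters, 91 to 2871 met those limits in single sex comparisons and 598 to 2598 in single stage comparisons.

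*αSma-EYFP* cells were a mixed sort, which the study set apart for holding supporting as well as interstitial and stromal cells. The 7 XY supporting markers had a mean level of 7.99 and 8.08 in XY cells of E11.5 and E12.5 against 6.91 and 6.85 in XX cells, and the 6 XX supporting markers one of 8.64 in XX against 7.13 in XY cells of E12.5. Interstitial and stromal cells had such levels too, so they are not particular to this sort. The XY supporting markers stood there at 7.85 and 9.01 in XY against 6.80 and 6.98 in XX cells of E11.5 and E12.5. The XX supporting markers stood at 8.59 in XX against 7.09 in XY cells of E12.5. The part of these markers in the values of the members was not tested. In *αSma-EYFP* cells *Bcl2* ran from 8.95 to 9.76 with a median of 9.20, *Bak1* from 8.09 to 8.79, *Mcl1* from 10.02 to 10.73 and *Pmaip1* from 6.52 to 7.35. *Bcl2* and *Bak1* thus lay above all germ cell values, as in the other somatic sorts. No member was called between the sexes with limma at any stage, where 0.249%, 5.15% and 5.73% of 16859 clusters were called at the 3 stages in order. Unadjusted p-values under 0.05 numbered 0, 1 and 1, for *Pmaip1* at E12.5 with a difference of -0.34 and for *Bcl2l1* at E13.5 with 0.32. Without XY *αSma-EYFP* E12.5 replicate 3 *Pmaip1* was called (-0.49, adjusted p = 0.0165).

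The levels of *Bcl2* over the 24 groups ran from 9.88 ± 0.09 (SD, n = 3) in XY interstitial and stromal cells of E11.5 and 9.67 ± 0.07 in their XX counterparts, both clear of their next neighbours, to 6.80 ± 0.21 in XY germ cells of E13.5. From the third group, XY endothelial cells of E12.5 at 9.44 ± 0.15, each neighbour down to XY endothelial cells of E11.5 at 8.95 ± 0.09 overlapped the next. A gap then led to XY supporting cells of E13.5 and E12.5 at 8.60 ± 0.17 and 8.56 ± 0.10, which overlapped each other, and another to the 6 germ cell groups, from 7.23 ± 0.31 downward, where every neighbour overlapped. *Pmaip1* had XY germ cells of E13.5 at the top at 8.40 ± 0.40, clear of XY germ cells of E12.5 at 7.56 ± 0.25, and from there down to 6.37 ± 0.09 in XX interstitial and stromal cells of E12.5 each group overlapped the next. *Bid* had the 6 germ cell groups at the top, from 6.75 ± 0.15 in XX germ cells of E11.5 to 6.28 ± 0.04 in XY germ cells of E13.5.

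Across the 24 group means, which share lineage and the arrays, the Pearson correlation of *Bcl2* with *Bak1* was 0.8667, of *Mcl1* with *Bak1* 0.8623, of *Bcl2* with *Bid* -0.8813 and of *Bak1* with *Bid* -0.6927. Of 15320 other genes, those whose group means followed a member most closely were *Mmp14*, *Tcf7l2* and *Phf2* for *Bcl2* (0.977, 0.9741 and 0.9726), *Casp8*, *Lpar6* and *Sh3bgrl* for *Bak1* (0.9684, 0.9665 and 0.9661), *Igfbpl1*, *Foxh1* and *Pipox* for *Bid* (0.9619, 0.9529 and 0.9449) and *Eya2*, *Ucma* and *Retreg1* for *Pmaip1* (0.9149, 0.8935 and 0.8531). *Mcl1* was closest to *0610012G03Rik*, *Btg1* and *Gnai2* (0.9315, 0.9299 and 0.9257), *Bbc3* to *Arhgap9* (0.9378), *Bmf* to *Prex1* (0.8958), *Bcl2l11* to *Crybg3* (0.8534) and *Bcl2l1* to *4933431E20Rik* (0.7405). For *Eya2*, as for *Pmaip1*, the highest group was XY germ cells of E13.5, at 7.02 ± 0.19.

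The other genes of the death pathway were counted in lists, first in germ cells against the other lineages, a comparison that called 76.8% of all clusters. Among caspases and genes of the apoptosome, the complex that activates caspase 9, 5 of 11 tested were higher and 5 lower. *Casp8*, the caspase of death receptors, was lower by 3.29 ± 0.06 log2 with a germ cell mean of 5.76, under the limit of 6, and *Htra2* was lower by 1.35 ± 0.06. *Cyct*, the testis form of cytochrome c, was higher by 5.04 ± 0.11 and *Diablo*, which relieves caspase inhibition, by 0.88 ± 0.05. Of 8 death receptor genes 2 were higher and 6 lower, with *Cflar*, an inhibitor of caspase 8, at -3.57 ± 0.10 and the receptor *Tnfrsf1a* at -1.78 ± 0.06 but *Tnfrsf10b* at 0.94 ± 0.07. The other tested survival gene of the family, *Bcl2l2*, was lower by 0.41 ± 0.04, and of 7 other death genes 1 was higher (*Bnip3*, 0.58 ± 0.06) and 3 lower (*Bad*, -0.48 ± 0.06, *Bok*, -0.31 ± 0.04, and *Bik*, -0.09 ± 0.03). Of 11 genes for *Mcl1* turnover and partners of the effectors, 4 were higher and 6 lower. *Huwe1* and *Fbxw7*, ubiquitin ligases for *Mcl1* protein, were higher by 0.52 ± 0.03 and 0.94 ± 0.08, *Usp9x*, which removes its ubiquitin, by 0.50 ± 0.05, and the channel gene *Vdac1* was lower by 0.94 ± 0.04. Of 11 p53 and FoxO regulators 6 were higher and 2 lower, with *Mdm4* at 0.82 ± 0.04 and *Mdm2* at 0.67 ± 0.05, both inhibitors of p53, and *Sesn1* at -0.87 ± 0.07. Of 6 inhibitor of apoptosis genes 3 were higher and 2 lower (*Birc5*, 0.78 ± 0.05, and *Xiap*, -0.53 ± 0.06). Adjusted p was at most 7.73e-11 for the genes named, except 0.0117 for *Bik*.

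Between XY and XX germ cells the lists were read against the share of all clusters called, which was 4.48% for E12.5 and 21.1% for E13.5. In the latter the list of *Mcl1* turnover and effector partners had 2 of 11 higher in XY (*Vdac1*, 1.12 ± 0.11, and *Bag6*, 0.78 ± 0.14) and 2 lower (*Huwe1*, -0.54 ± 0.10, and *Usp9x*, -0.50 ± 0.14). The executioner caspase gene *Casp6* was the 1 apoptosome and caspase gene of 11 called, at -1.57 ± 0.20 (2.96-fold lower in XY, adjusted p = 2.33e-08), and *Fadd*, a death receptor adaptor, the 1 of 8 in its list, at -0.54 ± 0.15. *Foxo1* and *Trp63* were higher in XY by 0.59 ± 0.15 and 0.32 ± 0.09, the 2 called of 11 p53 and FoxO genes. Adjusted p was at most 0.00746 for these genes. *Huwe1*, *Usp9x* and *Casp6* were lower in XY at E12.5 too, by differences of -0.50, -0.52 and -0.71 (adjusted p at most 0.0279). The change of the sex difference was called for *Vdac1* (1.13 ± 0.16), *Bag6* (0.74 ± 0.20), *Casp6* (-1.22 ± 0.29), *Foxo1* (0.67 ± 0.21) and *Trp63* (0.38 ± 0.12), with an adjusted p of at most 0.0391. In XX germ cells *Vdac1* fell by 1.83 ± 0.11 and *Casp6* rose by 0.93 ± 0.20 from E11.5 to E13.5, and in XY germ cells *Vdac1* fell by 0.70 ± 0.11.

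The same lists were counted between XY and XX supporting cells, where 30.7% and 29.4% of all clusters were called at E12.5 and E13.5. Of 11 apoptosome and caspase genes 4 were higher and 1 lower in XY at E12.5, and 4 and 2 at E13.5, with *Cycs*, the somatic cytochrome c, higher by 1.44 ± 0.17 and 1.52 ± 0.17 and *Casp6* lower at -0.87 ± 0.20 and -0.90 ± 0.20. *Birc5*, an inhibitor of apoptosis gene that also serves cell division, was higher in XY by 2.61 ± 0.14 and 2.58 ± 0.14, and moved with the cell cycle genes above. *Bag3*, a stress-induced co-chaperone, was lower in XY at -1.79 ± 0.16 and -2.87 ± 0.16. *Bok*, an effector relative, was higher by 0.48 ± 0.11 and 0.44 ± 0.11 and *Bad*, a BH3-only gene, lower at -0.68 ± 0.17 and -0.60 ± 0.17, the 2 called of 7 other death genes at each stage. Adjusted p for these genes was at most 0.00455.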

How the data were processed

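RNA of reporter-sorted cells was hybridised to Affymetrix Mouse Gene 1.0 ST arrays, 3 for each lineage, sex and stage. The authors processed the arrays in Partek by RMA with quantile normalization, median polish and an adjustment for probe sequence and GC content, and the deposited values are log2 intensities of 35557 transcript clusters over 91 arrays. Which arrays were normalized together, and the genome build of the annotation, are not given in the sources used here. Normalization to a common distribution makes every difference relative to the other genes of the array.

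Only the 21789 clusters that name 1 gene were kept. A test required a value over 6 on 2 or more arrays of a group, which 16820 clusters met. R 4.3.3 and limma 3.58.1 (lmFit, eBayes) were used to compare groups, fitting a mean for each of 24 groups over 72 arrays, with 48 residual degrees of freedom, or over 90 arrays with *αSma-EYFP* cells. A call is a Benjamini-Hochberg adjusted p under 0.05 over all tested clusters, and ± is the SE of a difference. The script was tested on simulated data. Replicates are arrays of separately pooled embryos, so p-values measure the spread between these pools, and 3 arrays per group limit the precision. The array of a whole newborn mouse entered no fit, and *Bax* is not analysed here. The methods' limits (unadjusted p under 0.05 and a fold over 1.5), other scalings, array weights, a replicate block and leaving out each array were alternatives.

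Members, lists and tests were chosen with earlier results of these data known. In each comparison described, the text names the members and, of each pathway list, up to 4 called genes with the lowest adjusted p, and for each member up to 3 genes with the most similar group means. A gene with several clusters is shown by the one with the highest mean. Promoter sequences are from RefSeq.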

Additional observations from a re-analysis of the deposited data

Results flagged for a closer look

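For 3 results the difference between XY and XX cells was not the same at E13.5 as at E11.5, by the test of that change in limma. For *Pmaip1* in germ cells it changed by 1.49 ± 0.17 log2 (SE, adjusted p = 2.81e-09), from 0.22 at E11.5 to 1.71 at E13.5. For *Bcl2* in supporting cells it changed by -0.64 ± 0.19 (adjusted p = 0.0141), from -0.13 to -0.77, across a change of reporter in the XY cells. For *Bcl2* in germ cells it changed by -0.61 ± 0.19 (adjusted p = 0.0283), with overlap of the sexes at both stages.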

How the results depend on the processing

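Of 54 calls for members none reversed under any alternative. All 54 held with array weights (then 12 by sex, 17 by stage and 30 by lineage), 53 of 54 with quantile normalization, median centring, no filter on low values or the replicate block, 21 of 25 when only arrays of the lineage entered the fit, 29 of 29 with *αSma-EYFP* arrays added, and 40 of 54 in every omission of 1 array. The call of *Mcl1* between germ cells of E13.5 was lost with median centring (adjusted p = 0.0742), no filter (0.052), the replicate block (0.0564) and arrays of the lineage alone (0.0517). Arrays of the lineage alone also ended the call of *Bcl2* between the sexes in germ cells of E13.5 (0.0937). They ended the call for the change of its sex difference in germ cells (0.141) and that of *Bbc3* in supporting cells of E13.5 (0.0897). Same-numbered XX and XY arrays deviated together (r over 0.1 in all 3 pairs) in 1 of 12 sets, germ cells of E12.5, and every array correlated best with its own number there and in germ cells of E11.5. Elsewhere the numbers were taken as names. The replicate block left the call of *Pmaip1* in germ cells of E12.5 in place. The replicate block added *Bcl2* in endothelial cells of E13.5 (adjusted p = 0.0478) and the change of *Pmaip1* in supporting cells (0.046).

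The methods' limits kept 21 of the 54 calls, 5 by sex, 7 by stage, 6 by lineage and all 3 changes of the sex difference. In single tests of that change 1023 to 2424 of 16820 clusters met these limits, and the other cluster counts are given above. Changes of the sex difference numbered 3, but 7 with quantile normalization, 5 with median centring and 6 with array weights. No share of all clusters called was counted under other scalings, array weights or omissions. These counts, those above and those below are therefore not read as a result about the members. Without each array in turn there were 7 to 10 calls by sex, 11 to 15 by stage, 28 to 30 by lineage, 2 to 5 changes of the sex difference (5 without XX supporting E11.5 replicate 3 or XX supporting E13.5 replicate 1) and 0 to 1 in *αSma-EYFP* cells (1 without XY *αSma-EYFP* E12.5 replicate 3). Without the XY endothelial groups of E12.5 and E13.5, an alternative chosen after seeing the data, 27 of 29 lineage calls held. The cause of these shifts was not tested. Since each member had 1 cluster, no second cluster could be tried.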
